A study of Homo sapiens with 6 samples.

Results

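ATF4 is a transcription factor that switches on genes for making, importing and loading amino acids. The gene group described here holds ATF4 itself and the genes listed with it: the kinases that act upstream, partner transcription factors, enzymes of asparagine, serine, one-carbon, proline and cysteine metabolism, amino acid transporters, stress effectors and cytosolic tRNA synthetases. The 52 genes were chosen by name, with no threshold on a measured value, but with earlier results of these data known. Counts over the list therefore only describe it, and no test was run over it. Of these, 50 had at least 1 probe set, a group of short oligonucleotides that reads 1 stretch of transcript, that the platform annotation gave to that gene alone. In all, 49 passed the filter on dim signals, among 14174 genes tested over the whole array. ALDH1L2, a mitochondrial folate enzyme, had 3 probe sets, none of which passed the filter. MARS1, the methionyl-tRNA synthetase, was listed on 3 probe sets that also carry a microRNA symbol, and no probe set was listed for the transaminase GPT2.

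Messenger RNA was measured on 6 one-colour arrays of 54675 probe sets from MDA-MB-231 cells, an established line from a human breast tumour of the triple-negative kind. In 3 samples the cells stably carried a MYOSIN10 shRNA, a short hairpin RNA against the filopodial motor gene now named MYO10, and in the other 3 a scramble shRNA. Both groups grew in L-15 medium with serum. Whether each line was a clone or a pool, how many hairpins were used and whether the numbers 1 to 3 stand for separate cultures is not stated in the labels. The p-values therefore measure only how far these samples differ from each other, and that spread may be technical. The brightest MYO10 probe set was at 54.2% of its scramble level and did not overlap between the groups (limma adjusted p = 0.0303), so the loss of the message was partial. That call held in 9 of 17 alternatives. It ended without the filter on dim signals (limma adjusted p = 0.0821) and without a variance trend (0.243). Leaving out scramble array 1 (0.0643) or 3 (0.142), or MYOSIN10 shRNA array 1 (0.137) or 3 (0.143), also ended it. The call depended on the probe set as well. The log2 difference of MYO10 was -0.88 as reported and -0.55 with the mean of its kept probe sets (limma adjusted p = 0.149). Without probe sets ending in _s_at and _x_at it was -0.58 (limma adjusted p = 0.141). Correlations between arrays ran from 0.978 to 0.987 over genes. The markers VIM, CD44, AXL and CAV1 of this mesenchymal line stood between 14.15 and 14.9 on the log2 scale on every array. Of the receptors that define the triple-negative kind, ESR1 and ERBB2 passed the filter on dim signals, with scramble and knockdown means of 6.99 and 6.94 for ESR1 and of 8.92 and 9.06 for ERBB2, and PGR did not. The blood gene HBB also passed, at means of 7.01 and 6.64, and overlapped between the groups. CDH1, the blood cell marker PTPRC and the fibroblast markers COL3A1 and PDGFRA did not pass. COL3A1 failed it only because it was bright on fewer than 3 arrays: its brightest probe set read 7.70 and 7.88 on MYOSIN10 shRNA arrays 1 and 3, but 4.14 on array 2 and 4.19 to 4.23 with scramble shRNA. COL1A1, another fibroblast collagen, overlapped between the groups at -0.045, and PDGFRA stood between 4.27 and 5.59 on all arrays. MYO10 was also lowest on knockdown arrays 1 and 3, at 10.70 and 10.64 against 11.39 on array 2. The epithelial EPCAM stood between 7.34 and 8.55 with scramble shRNA and between 8.65 and 8.9 with MYOSIN10 shRNA (limma adjusted p = 0.159), and the epithelial keratin KRT18 was higher by 0.30 (0.0709) without overlap. The part of these markers in the results below was not tested.

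When amino acids run short, uncharged tRNA activates the kinase GCN2 (gene EIF2AK4), and when proteins misfold in the endoplasmic reticulum the kinase PERK (EIF2AK3) is activated. Both phosphorylate the translation factor eIF2, which slows protein synthesis in general while the ATF4 message is translated more. ATF4 then pairs with C/EBP proteins on a short promoter element, the C/EBP-ATF response element, in genes such as ASNS. Arrays see the messages only, not the translation of ATF4 or the phosphorylation of eIF2.

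The response element is spelled TGATGNAAN, where N is any base, and it was searched on both strands in RefSeq promoter windows of assembly GRCh38.p14 that reach from 250 bases before to 50 bases after a gene's annotated start. Windows were found for 42 of the 52 genes. At least 1 match was present in 19 of the 42 (45.2%), against 4.45% of all 27305 genes with a window and 3.61% of all 35116 windows. The narrower spelling TGATGCAAN, which is contained in the first, was present in 13 of the 42 (31.0%) and in 1.08% of all genes. Matches were frequent among the listed tRNA synthetases (7 of 10) and transporters (5 of 7). Among 79 other amino acid and stress genes with a window, taken from separate lists, 4 held the element. Many of the genes here were listed as ATF4 targets, so this share describes the list, and a match is a spelling and not a measured binding site.

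The 250 bases before the start are shown for the 4 genes that fell in the MYOSIN10 shRNA cells, so that the 2 with a match (ASNS and JDP2) can be set beside the 2 without (ATF4 and PSAT1). Capitals mark the match, all are written 5′ to 3′ on the strand of the gene, and for genes with several listed starts the window with the match, or else the window of lowest coordinate, is shown. No capitals means only that these letters are not in this window.
ASNS, chr7:97872409-97872658, - strand: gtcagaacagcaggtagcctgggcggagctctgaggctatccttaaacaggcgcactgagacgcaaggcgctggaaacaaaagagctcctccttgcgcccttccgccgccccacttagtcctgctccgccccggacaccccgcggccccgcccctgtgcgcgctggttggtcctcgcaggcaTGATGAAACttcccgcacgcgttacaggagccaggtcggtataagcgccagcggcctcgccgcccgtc
JDP2, chr14:75427772-75428021, + strand: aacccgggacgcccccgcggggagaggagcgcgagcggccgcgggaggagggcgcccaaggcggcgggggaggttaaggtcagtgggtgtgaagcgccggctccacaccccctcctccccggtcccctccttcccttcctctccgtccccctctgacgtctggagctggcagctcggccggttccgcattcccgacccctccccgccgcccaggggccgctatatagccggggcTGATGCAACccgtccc
ATF4, chr22:39520309-39520558, + strand: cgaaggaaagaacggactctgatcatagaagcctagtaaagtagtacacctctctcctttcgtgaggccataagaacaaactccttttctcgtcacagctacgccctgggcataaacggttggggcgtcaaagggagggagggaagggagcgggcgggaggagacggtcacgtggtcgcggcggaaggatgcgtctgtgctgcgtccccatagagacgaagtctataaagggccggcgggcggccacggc
PSAT1, chr9:78296875-78297124, + strand: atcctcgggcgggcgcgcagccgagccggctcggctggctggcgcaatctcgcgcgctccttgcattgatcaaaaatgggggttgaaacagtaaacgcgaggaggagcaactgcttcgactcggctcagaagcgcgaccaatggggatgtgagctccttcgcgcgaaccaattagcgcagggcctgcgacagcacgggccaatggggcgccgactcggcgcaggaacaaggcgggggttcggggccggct

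The ASNS match begins 68 bases before the start, and that of JDP2 begins 16 bases before it. For the 4 other matched genes with the smallest p-values, 30 bases around the match are shown. Here the match lies on the gene's own strand for SLC7A1, and on the opposite strand for the synthetases CARS1, GARS1 and TARS1, where the capitals are its reverse complement.
CARS1, chr11:3057407-3057436, - strand: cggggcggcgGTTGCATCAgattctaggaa
GARS1, chr7:30594834-30594863, + strand: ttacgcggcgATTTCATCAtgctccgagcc
TARS1, chr5:33440956-33440985, + strand: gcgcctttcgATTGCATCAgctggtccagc
SLC7A1, chr13:29595662-29595691, - strand: ggcgcactgcTGATGAAACctggcgccgga

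Values below are log2 of the linear signal plus 16, and differences are MYOSIN10 shRNA minus scramble shRNA with the standard error (SE) of the limma fit. A gene is said to have risen or fallen only where its Benjamini-Hochberg adjusted p over all 14174 genes was under 0.05. A single further probe set is said to have fallen where its adjusted p among all 33370 kept probe sets was under 0.05. Of all kept probe sets 0.366% fell in that fit, and such a fall is no call of the gene. In the cells with MYOSIN10 shRNA 4 of the 49 tested genes fell, namely ASNS, JDP2, PSAT1 and ATF4, and 0 rose, while 45 did not pass (limma; 19 of the 49 had an unadjusted p under 0.05). Over all genes tested 1.62% passed, of which the falls were 0.459% and the rises 1.16% of the genes. Of the 19, 17 were lower and 2 higher, where 6.39% of all genes were lower and 8.49% higher at that threshold. Without a variance trend on signal in limma, 0 of the 49 passed, 11 of them with an unadjusted p under 0.05. Of the 49 differences 39 were below 0, against 48.2% of all genes, with a median of -0.17 for the group and 0.0093 over all genes. Leaving out ASNS, PSAT1 and ATF4, a step set in advance, moved the group median to -0.14, with 36 of 46 below 0. Of those 46 genes 1 fell (JDP2) and 0 rose. Of the 49, 46 reached the filter on all 6 arrays. In a bulk extract a lower signal may come from less message in each cell or from fewer cells that carry it, which cannot be told apart.

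**Figure D1:**
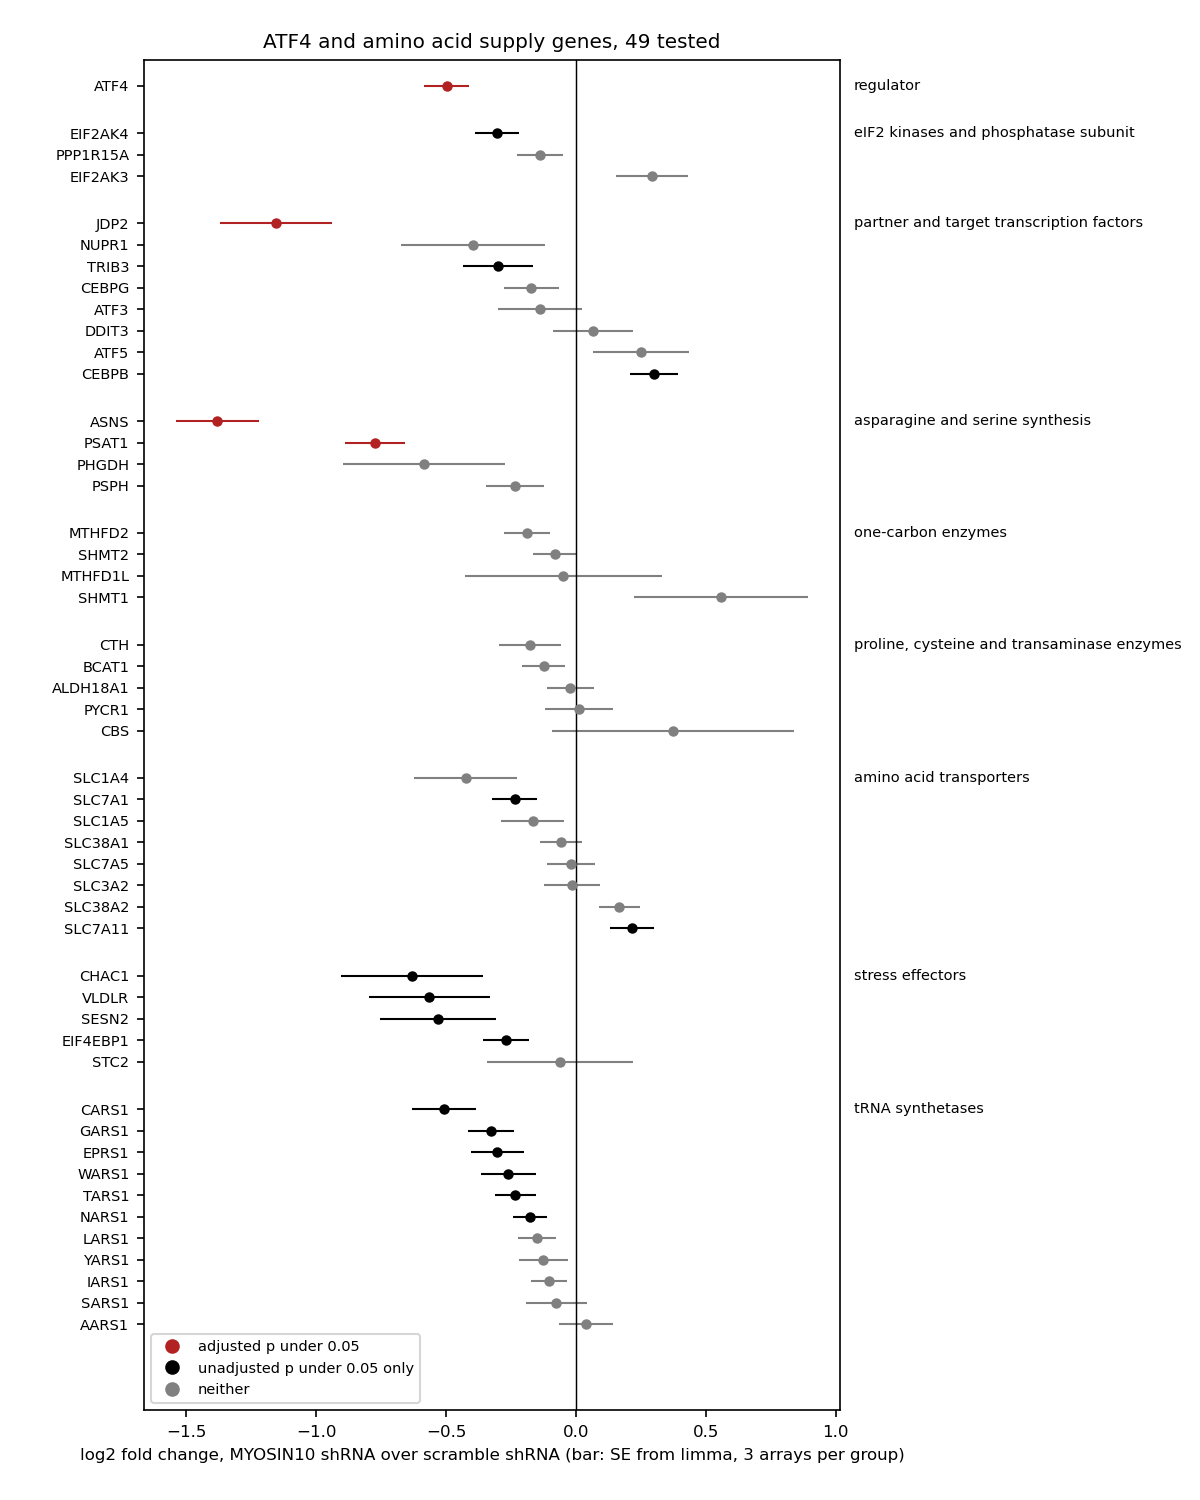
Log2 fold change of the 49 tested genes, MYOSIN10 shRNA over scramble shRNA (x axis, log2 units), by role (y axis); bars are the SE from limma with 3 arrays per group. Red marks the 4 genes that passed the adjusted threshold, ASNS, JDP2, PSAT1 and ATF4, all below 0, and black the 15 others with an unadjusted p under 0.05, of which 13 lie below 0.

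ATF4 itself had the smallest of the 4 falls. Its signal was 13.08, 12.83 and 13.13 on scramble arrays 1, 2 and 3 and 12.52, 12.51 and 12.51 on the MYOSIN10 shRNA arrays. The groups did not overlap, the knockdown arrays were nearly equal, and scramble array 2 was nearest to them. The difference was -0.50 ± 0.085 (SE; limma adjusted p = 0.0136), or 70.8% of the scramble level, with a 95% confidence interval from -0.68 to -0.31. A single probe set reads ATF4, so no other one could be compared. The call was lost when scramble array 1 (adjusted p = 0.0893), scramble array 3 (0.0747), knockdown array 1 (0.0728) or knockdown array 3 (0.0734) was left out. It was also lost without the variance trend (limma adjusted p = 0.182), while the difference stayed between -0.59 and -0.44 over 17 alternatives.

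Of the 2 eIF2 kinases and the phosphatase subunit in the group, none passed (limma; 1 of 3 with an unadjusted p under 0.05). EIF2AK4, the amino acid sensing kinase GCN2, read 11.31, 11.22 and 11.16 with scramble shRNA and 10.84, 10.99 and 10.93 with MYOSIN10 shRNA. These groups did not overlap, and the difference was -0.30 ± 0.086 (SE; limma adjusted p = 0.108). A dimmer EIF2AK4 probe set stood at 0.20, so the direction was turned when probe sets ending in _s_at and _x_at were left out. EIF2AK3, the kinase PERK, stood at 0.29 (limma adjusted p = 0.362), and PPP1R15A, the stress-induced subunit that brings phosphatase to eIF2, at -0.14 (0.515).

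Among the 8 partner and target transcription factors 1 fell, 0 rose and 7 did not pass. JDP2, a bZIP repressor that can bind with AP-1 and ATF family proteins, read 8.98, 8.10 and 8.61 with scramble shRNA and 7.24, 7.48 and 7.51 with MYOSIN10 shRNA. Every knockdown array lay below every scramble array, and scramble array 2 was again the lowest of its group. The difference was -1.15 ± 0.21 (SE; limma adjusted p = 0.0218), a 2.23-fold fall. The other kept JDP2 probe set, at a mean of 6.25, stood at -0.0086 (limma adjusted p = 0.994 among all kept probe sets), so the fall rests on the brighter one. With both averaged the difference was -0.58 (limma adjusted p = 0.147). The JDP2 call also ended without the filter (0.0762), without the variance trend (0.166), and without scramble array 1 (0.109) or 3 (0.115) or MYOSIN10 shRNA array 1 (0.105) or 3 (0.0699).

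CEBPB, a C/EBP protein that ATF4 can pair with, read 13.23, 13.13 and 13.30 with scramble shRNA and 13.71, 13.33 and 13.52 with MYOSIN10 shRNA. It was higher on every knockdown array than on any scramble array, by 0.30 ± 0.093 (SE; limma adjusted p = 0.144). Of the 49 genes, 3 did not overlap with the knockdown higher, namely CEBPB, SLC7A11 and SHMT1, against 11.2% of all genes. SHMT1 reached the filter on the 3 knockdown arrays only, so it was tested only through the group where it is higher and supports nothing. TRIB3, a pseudokinase that restrains ATF4, read 10.23, 9.74 and 10.21 with scramble shRNA and 9.72, 9.84 and 9.72 with MYOSIN10 shRNA. The 2 groups overlapped through scramble array 2, and the difference was -0.30 (limma adjusted p = 0.324). Its dimmer probe set stood at 0.15. The remaining factors were CEBPG, the smallest C/EBP protein and a partner of ATF4, at -0.17, the stress factor ATF3 at -0.14, the chromatin-associated NUPR1 at -0.40, DDIT3 (CHOP, which takes part in stress-induced death) at 0.065 and ATF5 at 0.25, with limma adjusted p-values from 0.485 to 0.892. The other CEBPG probe set stood at -0.41 (limma adjusted p = 0.131 among all kept probe sets).

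**Figure D2:**
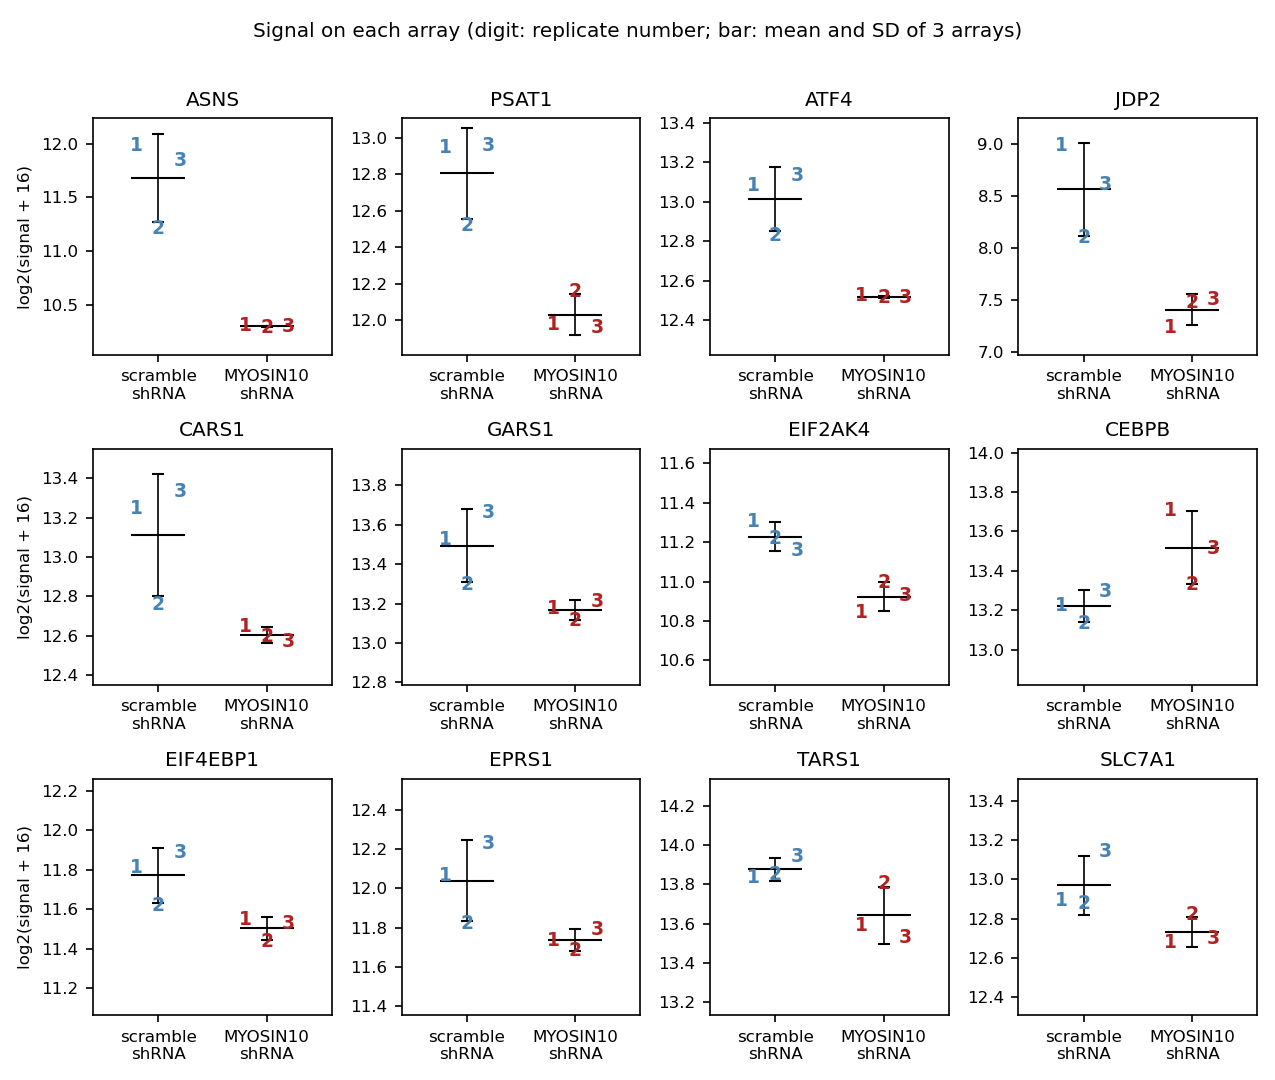
Signal of the 12 genes with the smallest p-values on each array (y axis, log2 of signal plus 16; x axis, group); digits are replicate numbers, and the bar is the mean and SD of 3 arrays. The groups do not overlap in any panel, CEBPB is the gene with the higher knockdown values, and scramble array 2 is the lowest scramble array in ASNS, PSAT1, ATF4, JDP2, CARS1 and GARS1, among others.

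Asparagine and serine synthesis held 2 of the 4 falls, and all 4 of its genes had negative differences. Of all genes tested 0.459% fell and 48.2% were below 0. ASNS, which makes asparagine from aspartate and glutamine, read 11.98, 11.21 and 11.84 with scramble shRNA and 10.31, 10.29 and 10.30 with MYOSIN10 shRNA. The knockdown arrays were within 0.0076 of each other by SD while the scramble arrays were spread over an SD of 0.41, and the groups were well apart. The difference was -1.38 ± 0.16 (SE; limma adjusted p = 0.00216), which is 38.4% of the scramble level. Its second probe set was too dim to pass the filter. The ASNS difference was called in 15 of the 16 alternatives that gave a value, and the exception was the fit without a variance trend (limma adjusted p = 0.117).

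Serine is made from a glycolytic intermediate in 3 steps, by PHGDH, PSAT1 and PSPH in turn. PSAT1, the aminotransferase of the middle step, read 12.94, 12.52 and 12.96 with scramble shRNA and 11.98, 12.16 and 11.96 with MYOSIN10 shRNA. All knockdown arrays were lower, with a difference of -0.77 ± 0.11 (SE; limma adjusted p = 0.00651) and a level of 58.5% of scramble. PSAT1 was called in 15 of the 16 alternatives that gave a value, and the exception was the fit without a variance trend (limma adjusted p = 0.161). A second, dimmer PSAT1 probe set also fell, with a log2 difference of -0.68 (limma adjusted p = 0.0479 among all 33370 kept probe sets). PSPH, the phosphatase of the last step, was represented by a probe set whose groups overlapped, at -0.23 (limma adjusted p = 0.365). Its next brightest probe set read 10.99, 10.62 and 10.83 with scramble shRNA and 10.21, 10.39 and 10.29 with MYOSIN10 shRNA. That probe set fell, with a difference of -0.52 (limma adjusted p = 0.0493 among all kept probe sets), and it was singled out after its values were seen. PHGDH, the entry enzyme, which is known to be scarce in this line, was dim. It read 7.12, 7.57 and 6.45 with scramble shRNA and 6.07, 6.70 and 6.62 with MYOSIN10 shRNA, with overlap and a difference of -0.59 ± 0.31 (SE; limma adjusted p = 0.421).

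The enzymes that carry one-carbon units from serine on folate had 0 of 4 calls and 0 with an unadjusted p under 0.05 in limma. MTHFD2, the mitochondrial folate dehydrogenase, read 12.14, 12.07 and 12.09 with scramble shRNA and 11.74, 11.97 and 12.03 with MYOSIN10 shRNA. The groups were separate by a small gap, with a difference of -0.19 ± 0.088 (SE; limma adjusted p = 0.347) and an interval from -0.38 to 0.0039. SHMT2, which splits serine in mitochondria, stood at -0.082 (limma adjusted p = 0.719), and its 2 other probe sets at 0.15 and -0.035. SHMT1 and MTHFD1L were read by dim probe sets, at means of 5.69 and 5.56 where the lowest possible value is 4, and each reached the filter on 3 arrays, which for SHMT1 were the knockdown arrays. The cytosolic SHMT1 stood at 0.56 and the mitochondrial synthetase MTHFD1L at -0.048 (limma adjusted p = 0.48 and 0.969). Neither size is firm.

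None of the 5 tested genes for proline, cysteine and branched-chain amino acids passed in limma, and 0 had an unadjusted p under 0.05. BCAT1, which transfers the amino group of branched-chain amino acids, had the smallest p of the 5, and read 12.59, 12.54 and 12.69 with scramble shRNA and 12.47, 12.36 and 12.61 with MYOSIN10 shRNA. The 2 groups overlapped, with a difference of -0.12 (limma adjusted p = 0.524). The other kept BCAT1 probe sets stood at -0.23, -0.020 and 0.20. The first of these did not overlap between the groups (limma adjusted p = 0.246 among all kept probe sets). The proline enzymes ALDH18A1 and PYCR1 stood at -0.021 and 0.011, with 95% confidence intervals from -0.22 to 0.18 and from -0.28 to 0.30. CTH, which releases cysteine from cystathionine, stood at -0.18 (limma adjusted p = 0.543), and CBS, the enzyme before it, was dim and stood at 0.37 ± 0.47 (SE).

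Transporters went both ways, and 0 of 8 passed (limma; 2 with an unadjusted p under 0.05). SLC7A1, which imports arginine and lysine, read 12.89, 12.88 and 13.14 with scramble shRNA and 12.68, 12.82 and 12.70 with MYOSIN10 shRNA. It was lower on every knockdown array, by a narrow margin, with a difference of -0.24 ± 0.086 (SE; limma adjusted p = 0.216). SLC7A11, which imports cystine, read 10.86, 10.85 and 10.72 against 11.04, 11.00 and 11.03. That is higher on every knockdown array, with a difference of 0.22 ± 0.085 (SE; limma adjusted p = 0.255). The glutamine carrier SLC38A2 was at 0.17 on the probe set used and at 0.24 and 0.16 on its 2 others (limma adjusted p = 0.358 for the first).

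SLC1A4, which carries alanine, serine and cysteine, depended on the probe set. The brightest, at 8.64, 8.04 and 8.63 with scramble shRNA and 7.72, 8.17 and 8.15 with MYOSIN10 shRNA, overlapped between the groups and stood at -0.42 (limma adjusted p = 0.346). The next brightest read 8.35, 7.90 and 8.58 against 7.32, 7.17 and 7.39, and it fell, with a difference of -0.99 ± 0.19 (SE; limma adjusted p = 0.0306 among all kept probe sets). It too was singled out after its values were seen. The other SLC1A4 probe sets that passed the filter stood at -0.69 and -0.062. Of the remaining transporters, the glutamine carrier SLC1A5 was at -0.17, the leucine exchanger SLC7A5 at -0.019, its heavy chain SLC3A2 at -0.015 and the glutamine carrier SLC38A1 at -0.059, with limma adjusted p-values from 0.58 to 0.964. For SLC7A5 the 95% confidence interval ran from -0.22 to 0.18.

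All 5 stress effectors had negative differences, and 0 passed (limma; 4 with an unadjusted p under 0.05). Of all genes tested 48.2% were below 0, and 6.39% were lower with an unadjusted p under 0.05. EIF4EBP1, the repressor of cap-dependent translation, read 11.81, 11.62 and 11.89 with scramble shRNA and 11.55, 11.43 and 11.53 with MYOSIN10 shRNA. These values did not overlap, and the difference was -0.27 ± 0.089 (SE; limma adjusted p = 0.173). SESN2, which holds mTORC1 down when leucine is short, read 7.73, 7.52 and 8.15 against 7.51, 7.37 and 6.94. The gap between the groups was slight, the difference was -0.53 ± 0.22 (SE; limma adjusted p = 0.295), and a second SESN2 probe set stood at 0.12. CHAC1, which degrades glutathione, read 7.16, 6.61 and 7.48 against 6.68, 6.40 and 6.27, a difference of -0.63 ± 0.27 (SE; limma adjusted p = 0.308). The lipoprotein receptor VLDLR read 9.63, 8.60 and 9.49 against 8.82, 8.45 and 8.75, a difference of -0.56 ± 0.23 (SE; limma adjusted p = 0.284). In both CHAC1 and VLDLR scramble arrays 1 and 3 lay above all knockdown arrays and scramble array 2 lay among them. The secreted STC2 was dim and stood at -0.063 (limma adjusted p = 0.943).

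Cytosolic tRNA synthetases attach amino acids to their tRNAs. Of the 11 tested, 10 had negative differences, 6 did not overlap between the groups with the knockdown lower, and 0 passed (limma; 6 with an unadjusted p under 0.05). Over all genes, 8.56% did not overlap with the knockdown lower, 48.2% were below 0 and 6.39% were lower with an unadjusted p under 0.05. The median difference of the 11 was -0.18. CARS1, for cysteine, read 13.25, 12.76 and 13.33 with scramble shRNA and 12.65, 12.60 and 12.57 with MYOSIN10 shRNA. Its difference was -0.51 ± 0.12 (SE; limma adjusted p = 0.0686), and its 2 dimmer kept probe sets stood at -0.65 and -0.40 (limma adjusted p = 0.059 and 0.197 among all kept probe sets). GARS1, for glycine, read 13.53, 13.30 and 13.66 against 13.18, 13.11 and 13.21, a difference of -0.33 ± 0.089 (SE; limma adjusted p = 0.0972). In both genes the knockdown arrays lay close together below all scramble arrays, with scramble array 2 nearest to them.

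EPRS1, which serves glutamate and proline, read 12.07, 11.82 and 12.23 with scramble shRNA and 11.73, 11.68 and 11.79 with MYOSIN10 shRNA, a difference of -0.30 (limma adjusted p = 0.18). Its 2 other probe sets stood at -0.42 and -0.33. TARS1, for threonine, read 13.83, 13.85 and 13.94 against 13.59, 13.80 and 13.53, a difference of -0.23 (limma adjusted p = 0.187), and a dim second probe set stood at 0.47, so that the mean of both was above 0. The asparagine enzyme NARS1 read 13.49, 13.45 and 13.58 against 13.32, 13.35 and 13.32, a small but separate difference of -0.18 ± 0.065 (SE; limma adjusted p = 0.225). WARS1, for tryptophan, read 11.22, 10.89 and 11.27 against 10.83, 10.91 and 10.85, a difference of -0.26 (limma adjusted p = 0.281), with overlap through scramble array 2. LARS1, YARS1, IARS1 and SARS1, for leucine, tyrosine, isoleucine and serine, stood at -0.15, -0.13, -0.10 and -0.076. AARS1, for alanine, was the single positive value at 0.038 (limma adjusted p = 0.909), with a 95% confidence interval from -0.19 to 0.26.

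Synthetases outside the group serve as a description of the same process. Of the 7 tested among 11 other cytosolic synthetases and their scaffold proteins, 0 passed (limma; 1 with an unadjusted p under 0.05) and 3 were below 0, with a median of 0.044. The scaffold protein AIMP1 had the smallest p, at -0.20 (limma adjusted p = 0.301), and KARS1, HARS1 and RARS1 stood at 0.044, 0.051 and -0.10. FARSA, FARSB and VARS1 stood at 0.21, 0.14 and -0.066. Among 15 tested mitochondrial synthetases 0 passed (limma; 2 with an unadjusted p under 0.05) and 5 were below 0, with a median of 0.084. NARS2 had the smallest p of these, at 0.39 (limma adjusted p = 0.128). The difference between these lists was not tested.

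**Figure D3:**
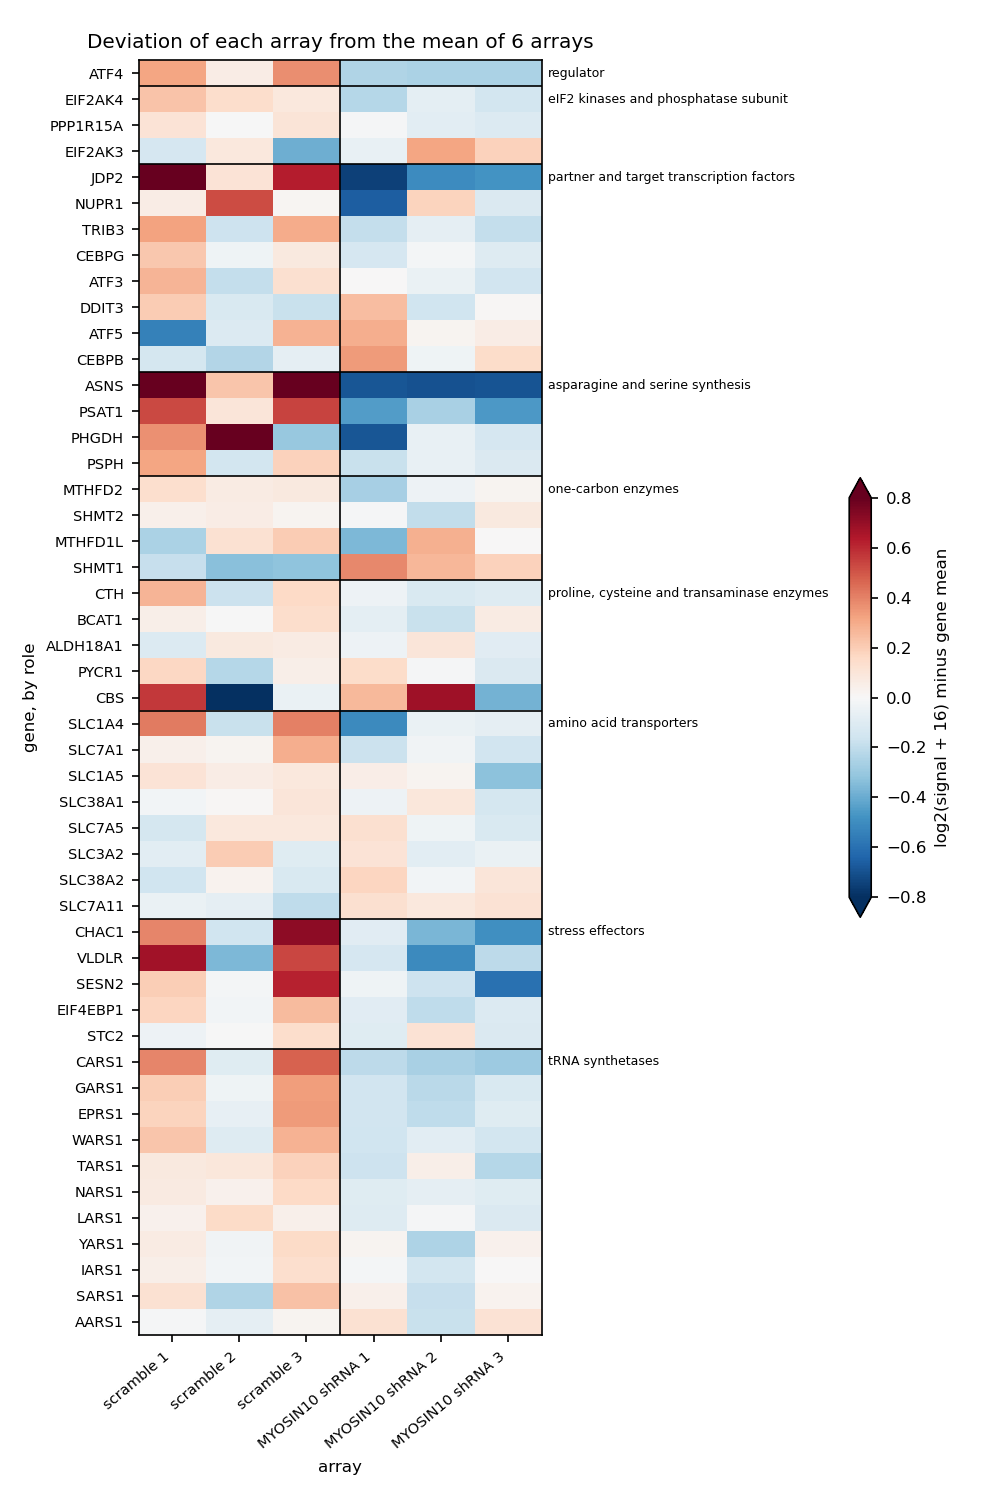
Deviation of each array (x axis) from the 6-array mean of each of the 49 genes (y axis, by role), in log2 units, with colours saturated beyond 0.8. Red fills most of the scramble 1 and scramble 3 columns and blue most of the knockdown columns for ATF4, the serine and asparagine genes, the stress effectors and the synthetases, and the scramble 2 column is paler, with a median of -0.015 over the 49 genes.

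Scramble array 2 stood apart from the other scramble arrays in these genes. The median deviation of the 49 genes from their 6-array means was 0.12 on scramble array 1, -0.015 on scramble array 2 and 0.14 on scramble array 3. It was -0.090, -0.071 and -0.11 on MYOSIN10 shRNA arrays 1, 2 and 3, and over all genes the 6 medians ran from -0.016 to 0.019. In 32 of the 49 genes scramble array 2 was the lowest scramble array (65.3%), against 40% of all genes. Without scramble array 2, 12 of the 49 fell and 0 rose, where 2.87% of all genes fell. The 8 added were TRIB3, PSPH, EIF4EBP1, VLDLR, CARS1, EPRS1, GARS1 and WARS1. Without both arrays numbered 2, 16 fell and 2 rose (CEBPB and SLC38A2). Of all 14174 genes 1224 passed there, of which 530 fell (3.74% of all genes) and the others rose. The 2 rises therefore show nothing about the group. Scramble array 2 was the lowest scramble array in 32 of the 49, so leaving it out raises their scramble means by itself. That widens the negative differences among the 32 and lowers the positive ones, such as that of CEBPB, from 0.30 to 0.26. The calls added without scramble array 2 are therefore no separate support for a fall. Without scramble array 1 or 3, or MYOSIN10 shRNA array 1 or 3, the genes that fell were ASNS and PSAT1 each time. The labels give no batch or date that would set scramble array 2 apart.

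**Figure D4:**
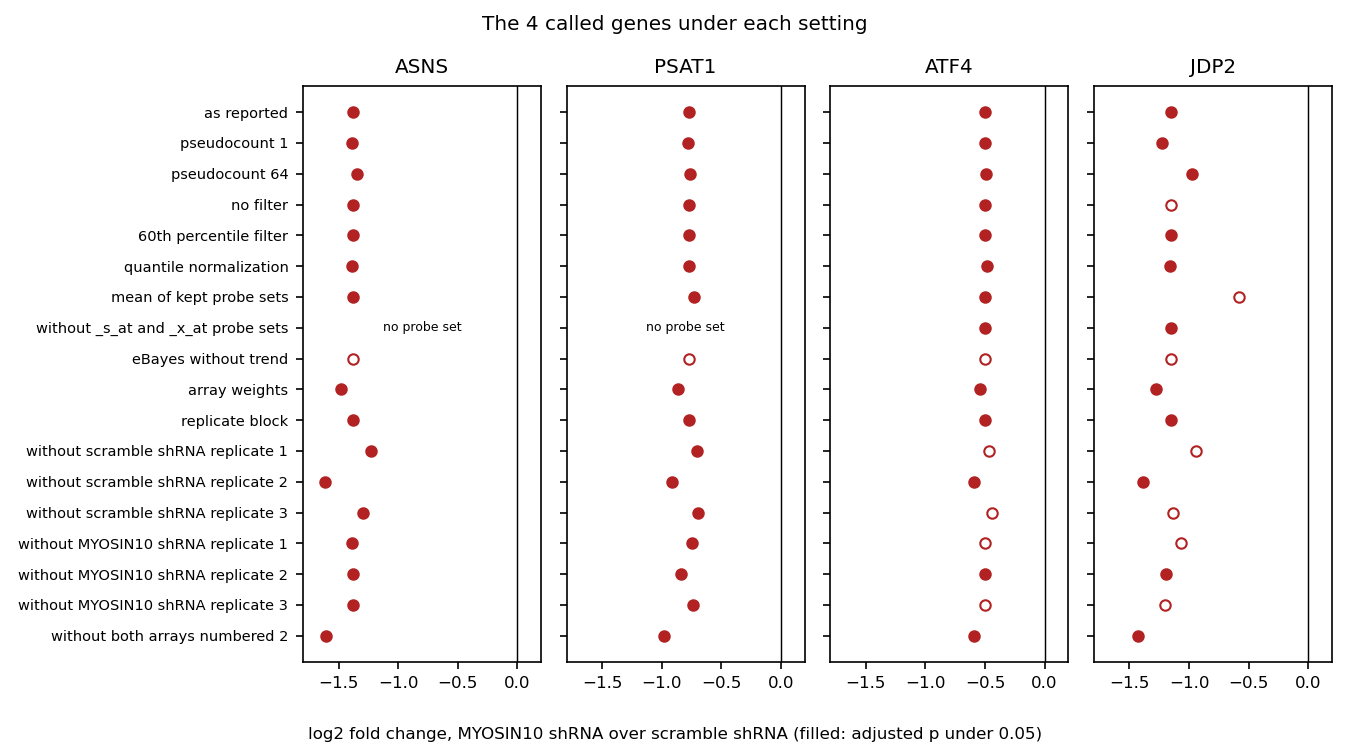
Log2 fold change (x axis) of the 4 genes that fell, as reported and under each of 17 alternative settings (y axis); filled points passed the adjusted p threshold of 0.05 and open points did not. All points lie below 0, ASNS between -1.61 and -1.23 and ATF4 between -0.59 and -0.44, and the fit without a variance trend leaves all 4 open.

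The tested genes were split by whether a promoter window held the response element, and the difference between both sets was not tested. The 18 tested genes with a match had a median difference of -0.17, with 17 below 0. Of the 18, 2 fell (ASNS and JDP2) and 8 did not overlap with the knockdown lower. For the 23 tested genes with a window but no match the median was -0.14, with 16 below 0, 2 that fell (ATF4 and PSAT1) and 7 without overlap in that direction. Over all genes, 48.2% were below 0, 0.459% fell and 8.56% did not overlap with the knockdown lower. Many of the genes were listed as ATF4 targets, and all with earlier results known, so these counts describe the list. The set without a match also holds ATF4 itself and the eIF2 kinases, so it is not a set of targets only. Matched genes ran from ASNS at -1.38 to AARS1 at 0.038, a wide range. Matches began between 210 bases before the start (CHAC1) and 37 bases after it (SLC3A2), and 13 of the 18 had a match that began within 50 bases of a listed start.

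**Figure D5:**
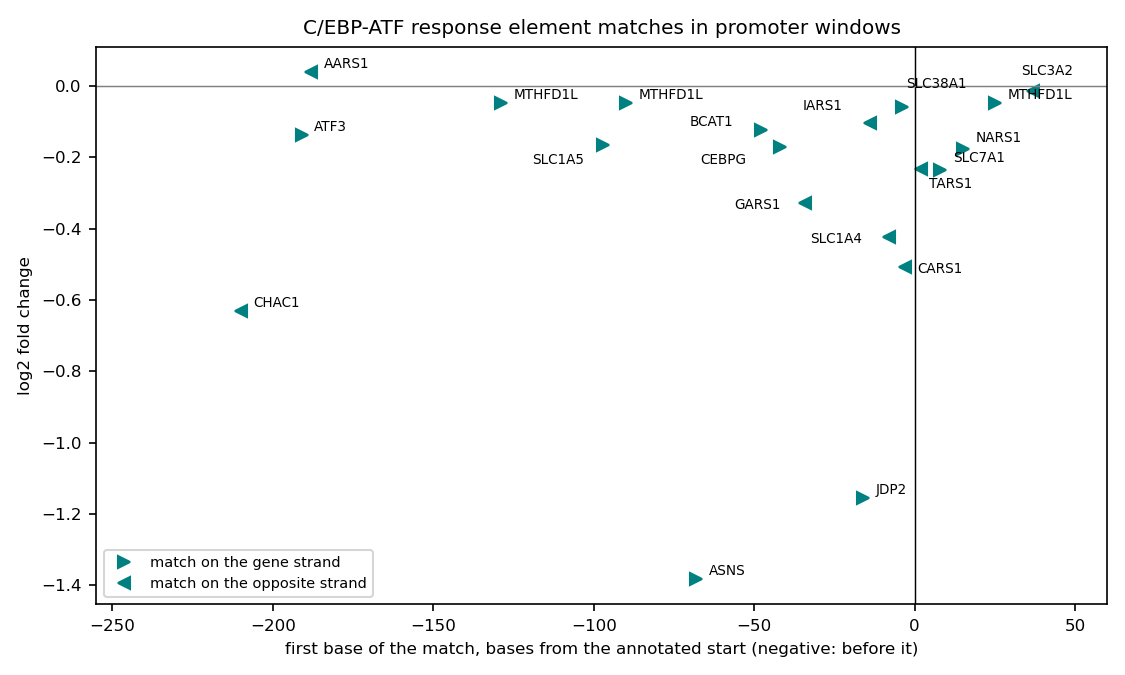
Position of the first base of each TGATGNAAN match relative to the annotated start (x axis, bases) and log2 fold change of the gene (y axis); arrowheads show the strand, and MTHFD1L appears 3 times because 3 of its listed starts see the same match. Most matches lie near the start, and all genes shown but AARS1 are below 0.

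Other genes of amino acid supply and of the eIF2 pathway were taken from separate lists of 98 genes, of which 86 were tested. Over these, 1 rose, 0 fell and 85 did not pass (limma; 15 with an unadjusted p under 0.05), with a median of 0.062. These shares are near those of all genes, of which 1.16% rose and 14.9% had an unadjusted p under 0.05, so the counts show nothing about the lists. The gene that rose was ASS1, argininosuccinate synthase, which consumes aspartate and citrulline on the way to arginine. ASS1 read 9.48, 10.02 and 9.35 with scramble shRNA and 10.71, 10.33 and 10.71 with MYOSIN10 shRNA. Here scramble array 2 was the highest of its group and knockdown array 2 the lowest of its own, and the groups did not overlap. The difference was 0.97 ± 0.17 (SE; limma adjusted p = 0.015), or 1.96-fold, and the call held in 11 of 16 alternatives, ending without scramble array 1 (0.0967) or 3 (0.0918), without MYOSIN10 shRNA array 1 (0.0837) or 3 (0.0851) and without the variance trend (0.182).

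Of 13 tested genes for eIF2 and its control 0 passed (limma; 3 with an unadjusted p under 0.05). GCN1, the ribosome-bound activator of GCN2, had the smallest p and stood at 0.42 ± 0.11 (SE; limma adjusted p = 0.0978), higher on every knockdown array. Among 14 other reported ATF4 or stress targets 0 passed (limma; 4 with an unadjusted p under 0.05) and 4 were below 0, with a median of 0.13. XBP1, a factor of the unfolded protein response, stood at -0.35 (limma adjusted p = 0.124), while the secreted stress factor GDF15 stood at 0.065 and DDIT4, an mTORC1 inhibitor, at 0.16. Other transporters had 0 calls among 10 (limma; 1 with an unadjusted p under 0.05), where SLC43A1, a carrier of large neutral amino acids, stood at 0.38 (limma adjusted p = 0.265). The mTORC1 sensing genes had 0 calls among 11 and 0 with an unadjusted p under 0.05, where MTOR stood at -0.33 (limma adjusted p = 0.449).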

How the data were processed

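Per the submitters' processing notes the authors used MAS5, which summarises probe sets array by array and scales all arrays alike, so a shift in total RNA would be hidden. The deposited values are log2 signals: undoing the log gave a trimmed mean of 500.1 on all arrays. Here 16 was added to the linear signal before log2, which understates the change of dim genes. Probe sets at or above the 40th percentile of the array on 3 or more arrays were kept, and the brightest kept one with a single annotated symbol, updated through RefSeq (GRCh38.p14), stands for its gene. Brightness served only to choose among a gene's probe sets and to mark dim ones; levels were not compared between genes. Arrays give no read depth, and 3 per group limit the precision.

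The test was limma 3.58.1 (R 4.3.3; lmFit and eBayes with a variance trend, two-sided), with Benjamini-Hochberg adjustment over all genes and a threshold of 0.05; it was tested on simulated data. Other probe sets were fitted among all 33370 kept ones. No test was run over the list. Members, lists and motif were chosen with earlier results of these data known. Array values are given for called genes, those with an unadjusted p under 0.05 and otherwise the smallest p in a role; further genes were named after their values were seen. Alternatives changed the pseudocount (1 or 64), filter (none or 60th percentile), scaling, probe set rule, variance model, array weights, replicate block and arrays used.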

Additional observations from a re-analysis of the deposited data

How the results depend on the processing

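As reported, 4 of the 49 genes fell, 0 rose, their median difference was -0.17, and 229 genes passed in all. The count of 4 became 0 without the variance trend, 9 with array weights and 16 without both arrays numbered 2, and ran from 2 to 12 as single arrays were left out. The count of risen genes was 1 with the replicate block, which gave 6 falls, and 2 without both arrays numbered 2. The shares of all genes that fell were 2.09% with array weights and 1.57% with the replicate block. Of the 611 genes that passed with the replicate block 222 fell and the others rose. The median became -0.092 with the mean of kept probe sets and -0.23 without both arrays numbered 2, and kept within the spread between arrays in the other alternatives. Over all genes, 126 passed without a filter, 111 with the mean of kept probe sets, 7 without the variance trend, 791 with array weights, 611 with the replicate block, 1224 without both arrays numbered 2, and 66 to 964 as single arrays were left out. Same-numbered arrays deviated together with correlations of 0.0587, 0.163 and 0.0397. The labels do not say whether the numbers pair the samples, and these values do not settle it. The block is therefore given only as an alternative. Of 350 values of 21 genes, 308 kept direction and side of the threshold, 26 gained a call, 14 lost it and 2 reversed: TARS1 at 0.12 with the mean of kept probe sets, and EIF2AK4 at 0.20 without _s_at and _x_at probe sets, which also left ASNS and PSAT1 without a value. The cause of these shifts was not tested. Dim probe sets (SHMT1, MTHFD1L, CBS, STC2) limit what can be said of their genes.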
